A study of Mus musculus with 12 samples.

Results

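The genes described are Ndufa4l2, Cox4i2, Higd1a, Lonp1 and Fam162a, 5 nuclear genes whose mitochondrial proteins take part in adaptation to low oxygen. They were chosen by name from 21631 protein-coding genes, and every called peak that overlapped a gene span or the 10 kb on either side was taken. The data are ChIP-seq peaks (chromatin immunoprecipitation followed by sequencing) of the transcription factor subunits HIF1A and ARNT. The cells were N1E115, from mouse neuroblastoma, labelled as expressing NOS1, a nitric oxide synthase. The groups were HIF1A at 4% O2, HIF1A at 20% O2, ARNT at 4% O2 and ARNT at 20% O2, with 2 peak lists each and peaks called against input chromatin. All cells were kept for 3 days with 5% CO2. All come from 1 cell line, and separate cultures are not stated for the replicates, so spreads and p-values measure only the variation between these samples, which may be technical. Peak lists hold no expression values, so the cell type was not checked against markers. In bulk chromatin, a larger share of cells with binding and more binding per cell cannot be told apart.

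HIF-1 is a dimer of HIF1A, which prolyl hydroxylation marks for degradation when oxygen is plentiful, and ARNT, which does not depend on oxygen for its stability. The dimer binds DNA at hypoxia response elements with the core ACGTG or GCGTG. In mitochondria its targets are known for lowering electron flow, exchanging respiratory chain subunits and limiting damage. NDUFA4L2 resembles a respiratory chain subunit and is known to lower complex I activity in hypoxia. COX4I2 is the isoform of cytochrome c oxidase subunit 4 that replaces COX4I1, and LONP1 is the matrix protease that in human cells degrades COX4I1 during that exchange. HIGD1A is an inner membrane protein that binds cytochrome c oxidase. FAM162A, also called HGTD-P, is a mitochondrial protein linked to cell death in hypoxia.

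The lists held between 1808 peaks (ARNT at 20% O2, replicate 2) and 42701 peaks (HIF1A at 4% O2, replicate 1). Read counts are not part of them, which leaves depth unknown, and the number of peaks in a list moved with oxygen. HIF1A replicate 1 had 42701 peaks at 4% O2 and 5393 at 20% O2, and ARNT had 24942 and 9920 at 4% O2 and 7252 and 1808 at 20% O2. Only HIF1A replicate 2 had lists of nearly equal length, with 13655 entries at 4% O2 and 13386 at 20% O2. These replicate 2 entries are 1 bp positions, read here as summits, and the other lists hold intervals. Strength is given as a percentile, the percent of peaks in the same list with a score at or below that of the peak. Scores are the authors' own, 1 per peak.

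At 4% O2 all 5 genes had a peak in both HIF1A lists and in both ARNT lists. Among all protein-coding genes, 34.5% had this for HIF1A, 31.6% for ARNT and 26.4% in all 4 lists. At 20% O2 Fam162a alone of the 5 had a peak in both HIF1A lists, against 10.7% of protein-coding genes, and Ndufa4l2 and Lonp1 had one in both ARNT lists, against 7.25%. None of the 5 had a peak in all 4 lists at 20% O2, as 3.35% of protein-coding genes did. In single lists at 4% O2, 56.9% and 34.8% of protein-coding genes had a peak for HIF1A replicates 1 and 2, and 49.3% and 35.5% for ARNT. In single lists at 20% O2 the 5 genes differed by list. HIF1A replicate 1 had a peak at 1 of them (11.3% of protein-coding genes) and replicate 2 at 5 (31.7%), while ARNT replicate 1 had one at 3 (22.3%) and replicate 2 at 2 (7.6%). Peaks in both lists at 4% O2 and neither at 20% O2 were found at 0 of the 5 genes for HIF1A (9.96% of protein-coding genes) and at 2, Cox4i2 and Higd1a, for ARNT (16.8%). For HIF1A the usual pattern was both lists at 4% O2 and replicate 2 alone at 20% O2, at 4 of the 5 genes, against 15.4% of protein-coding genes. By the lowest of its 4 best percentiles at 4% O2, Fam162a stood at position 39 of 21631 genes, Higd1a at 94, Lonp1 at 105, Ndufa4l2 at 146 and Cox4i2 at 545. The median of this lowest percentile was 99.2 over the 5 genes and 0 over all genes, 0 standing for a list without a peak.

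**Figure D1:**
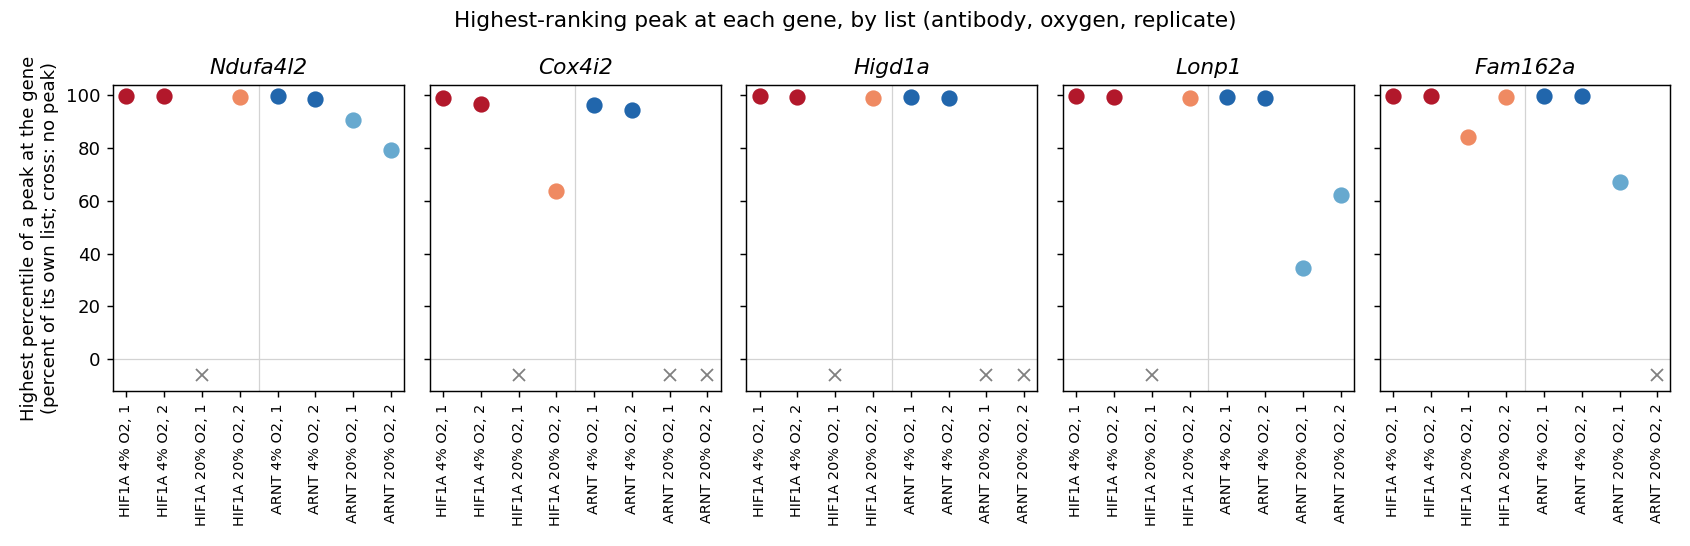
Highest percentile of any peak at each gene (y axis, percent of its own list) in the 8 lists (x axis, antibody, oxygen level and replicate number), with crosses for lists without a peak. All points at 4% O2 lie between 94.5 and 99.96, while at 20% O2 HIF1A replicate 1 has a peak only at Fam162a.

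Ndufa4l2 (NCBI gene 407790, mm10 chromosome 10, 127509274 to 127517154) had its strongest site at its higher-coordinate end, at chr10:127516489-127517514. In HIF1A at 4% O2 the site had percentiles of 99.96 and 99.71 in replicates 1 and 2, which placed it 19th of 42701 and 40th of 13655 peaks. HIF1A at 20% O2 had no peak there in replicate 1 and a summit at percentile 99.25 in replicate 2, at the same base as at 4% O2 (127516810). In ARNT the site had percentiles of 99.92 and 98.67 at 4% O2 and no peak in either list at 20% O2. The summit lay 344 bp inside the gene end. That end overlaps the end of Shmt2, which encodes a mitochondrial serine hydroxymethyltransferase, by 32 bp, while the start of Shmt2 lies at its other end.

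A second Ndufa4l2 site lay at the lower-coordinate end, with the HIF1A summit of 4% O2 22 bp outside the gene. It had percentiles of 97.4 and 93.3 in the HIF1A lists and of 97.1 and 93.9 in the ARNT lists at 4% O2. At 20% O2 it appeared in HIF1A replicate 2 only, at percentile 91.4. Another site in all 4 lists at 4% O2, at chr10:127513530-127514075 inside the gene, had percentiles of 98.0 and 88.8 in the HIF1A lists and of 93.1 and 54.0 in the ARNT lists, and no peak at 20% O2. A site at chr10:127512887-127513212, also inside the gene, had percentiles of 90.3 and 63.7 in the HIF1A lists and 86.3 in ARNT replicate 1 at 4% O2, against 41.1 in HIF1A replicate 2 and 27.3 in ARNT replicate 1 at 20% O2. The ARNT peaks that both lists had at 20% O2 were at none of these sites. They lay inside Shmt2, at chr10:127521872-127522005, with percentiles of 90.9 and 79.1 at 20% O2 and 72.7 in ARNT replicate 1 at 4% O2. The orientation of Ndufa4l2 and Cox4i2 was not in the tables used here, so these sites are placed by gene ends.

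Cox4i2 (NCBI gene 84682, chromosome 2, 152753916 to 152765039) had 1 site in all 4 lists at 4% O2, at chr2:152754355-152754661, with the HIF1A summit 623 bp inside the lower-coordinate end. Its percentiles at 4% O2 were 98.9 and 96.7 in the HIF1A lists and 96.3 and 94.5 in the ARNT lists. At 20% O2 HIF1A replicate 2 had a summit 1 bp away at percentile 63.9, and the other 3 lists had no peak in the window. It ranked lowest of the 5 genes in each list at 4% O2. A weaker neighbouring site, at chr2:152754713-152755405, was in 3 of the lists at 4% O2 and in none at 20% O2. The apoptosis regulator gene Bcl2l1 overlaps the other end of Cox4i2, with its span 4071 bp from the stronger site, and the lncRNA gene Gm32057 covers both sites.

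Higd1a (NCBI gene 56295, chromosome 9, 121848557 to 121857796, minus strand) had its strongest site over its transcription start, at chr9:121857397-121858417. The percentiles at 4% O2 were 99.64 and 99.40 in the HIF1A lists and 99.53 and 99.22 in the ARNT lists. At 20% O2 the site was in HIF1A replicate 2 only, at percentile 99.04. ARNT had no peak at 20% O2 anywhere in the Higd1a window. The HIF1A summits lay 78 bp after the start at 4% O2 and 60 bp after it at 20% O2. The lncRNA gene Gm47112 overlaps this start by 50 bp in the opposite orientation.

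Lonp1 (NCBI gene 74142, chromosome 17, 56614297 to 56626903, minus strand) also had its strongest site at the start, with the HIF1A summit 44 bp before it at 4% O2 and 26 bp before it at 20% O2. The percentiles at 4% O2 were 99.70 and 99.25 in the HIF1A lists and 99.54 and 99.16 in the ARNT lists. At 20% O2 HIF1A replicate 1 had no peak and replicate 2 had percentile 98.89. ARNT at 20% O2 replicate 2 had a peak at the start, at percentile 62.3, while the ARNT peaks of replicate 1 lay inside the gene at percentile 34.5 and between Micos13 and Rpl36 at percentile 2.32. The 2 ARNT lists at 20% O2 thus both had a peak at Lonp1 but no peaks that overlapped. Upstream of the start, sites at chr17:56627622-56628229 and chr17:56630331-56630799 were in all 4 lists at 4% O2 and in no list at 20% O2. The nearer one had percentiles of 94.9 and 83.5 in the HIF1A lists and of 73.3 and 72.5 in the ARNT lists at 4% O2, and the farther one 86.8 and 86.2 in the HIF1A lists and 38.0 and 76.1 in the ARNT lists. Both lie inside Catsperd, a gene of a sperm calcium channel, whose span begins 7 bp beyond that of Lonp1. Both HIF1A summits at the start of Lonp1 also lie inside the Catsperd span, so that site cannot be assigned to 1 of the 2 genes by position.

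Fam162a (NCBI gene 70186, chromosome 16, 36043844 to 36071561, minus strand) had 2 sites of high rank at 4% O2, and they differed at 20% O2. The site at the start, at chr16:36069924-36072522, had percentiles of 99.93 and 99.69 in the HIF1A lists and 99.88 and 99.67 in the ARNT lists at 4% O2. At 20% O2 it was in HIF1A replicate 2 only, at percentile 99.57. The inner site, at chr16:36056206-36057283, had its HIF1A summit 14866 bp after the start. Its percentiles at 4% O2 were 99.59 and 98.54 in the HIF1A lists and 99.42 and 98.46 in the ARNT lists. At 20% O2 the inner site was in both HIF1A lists, at 84.3 and 96.1, and in ARNT replicate 1 at 67.1. It was the one site at the 5 genes with overlapping peaks in both HIF1A lists at 20% O2. Another site at chr16:36058655-36058872 had percentiles of 98.2 and 96.3 in the HIF1A lists and of 94.5 and 90.4 in the ARNT lists at 4% O2, and 77.2 in HIF1A replicate 2 at 20% O2. The gene Ccdc58 lies 98 bp beyond the Fam162a start, so the site at the start cannot be assigned to 1 of the 2 genes by position.

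**Figure D2:**
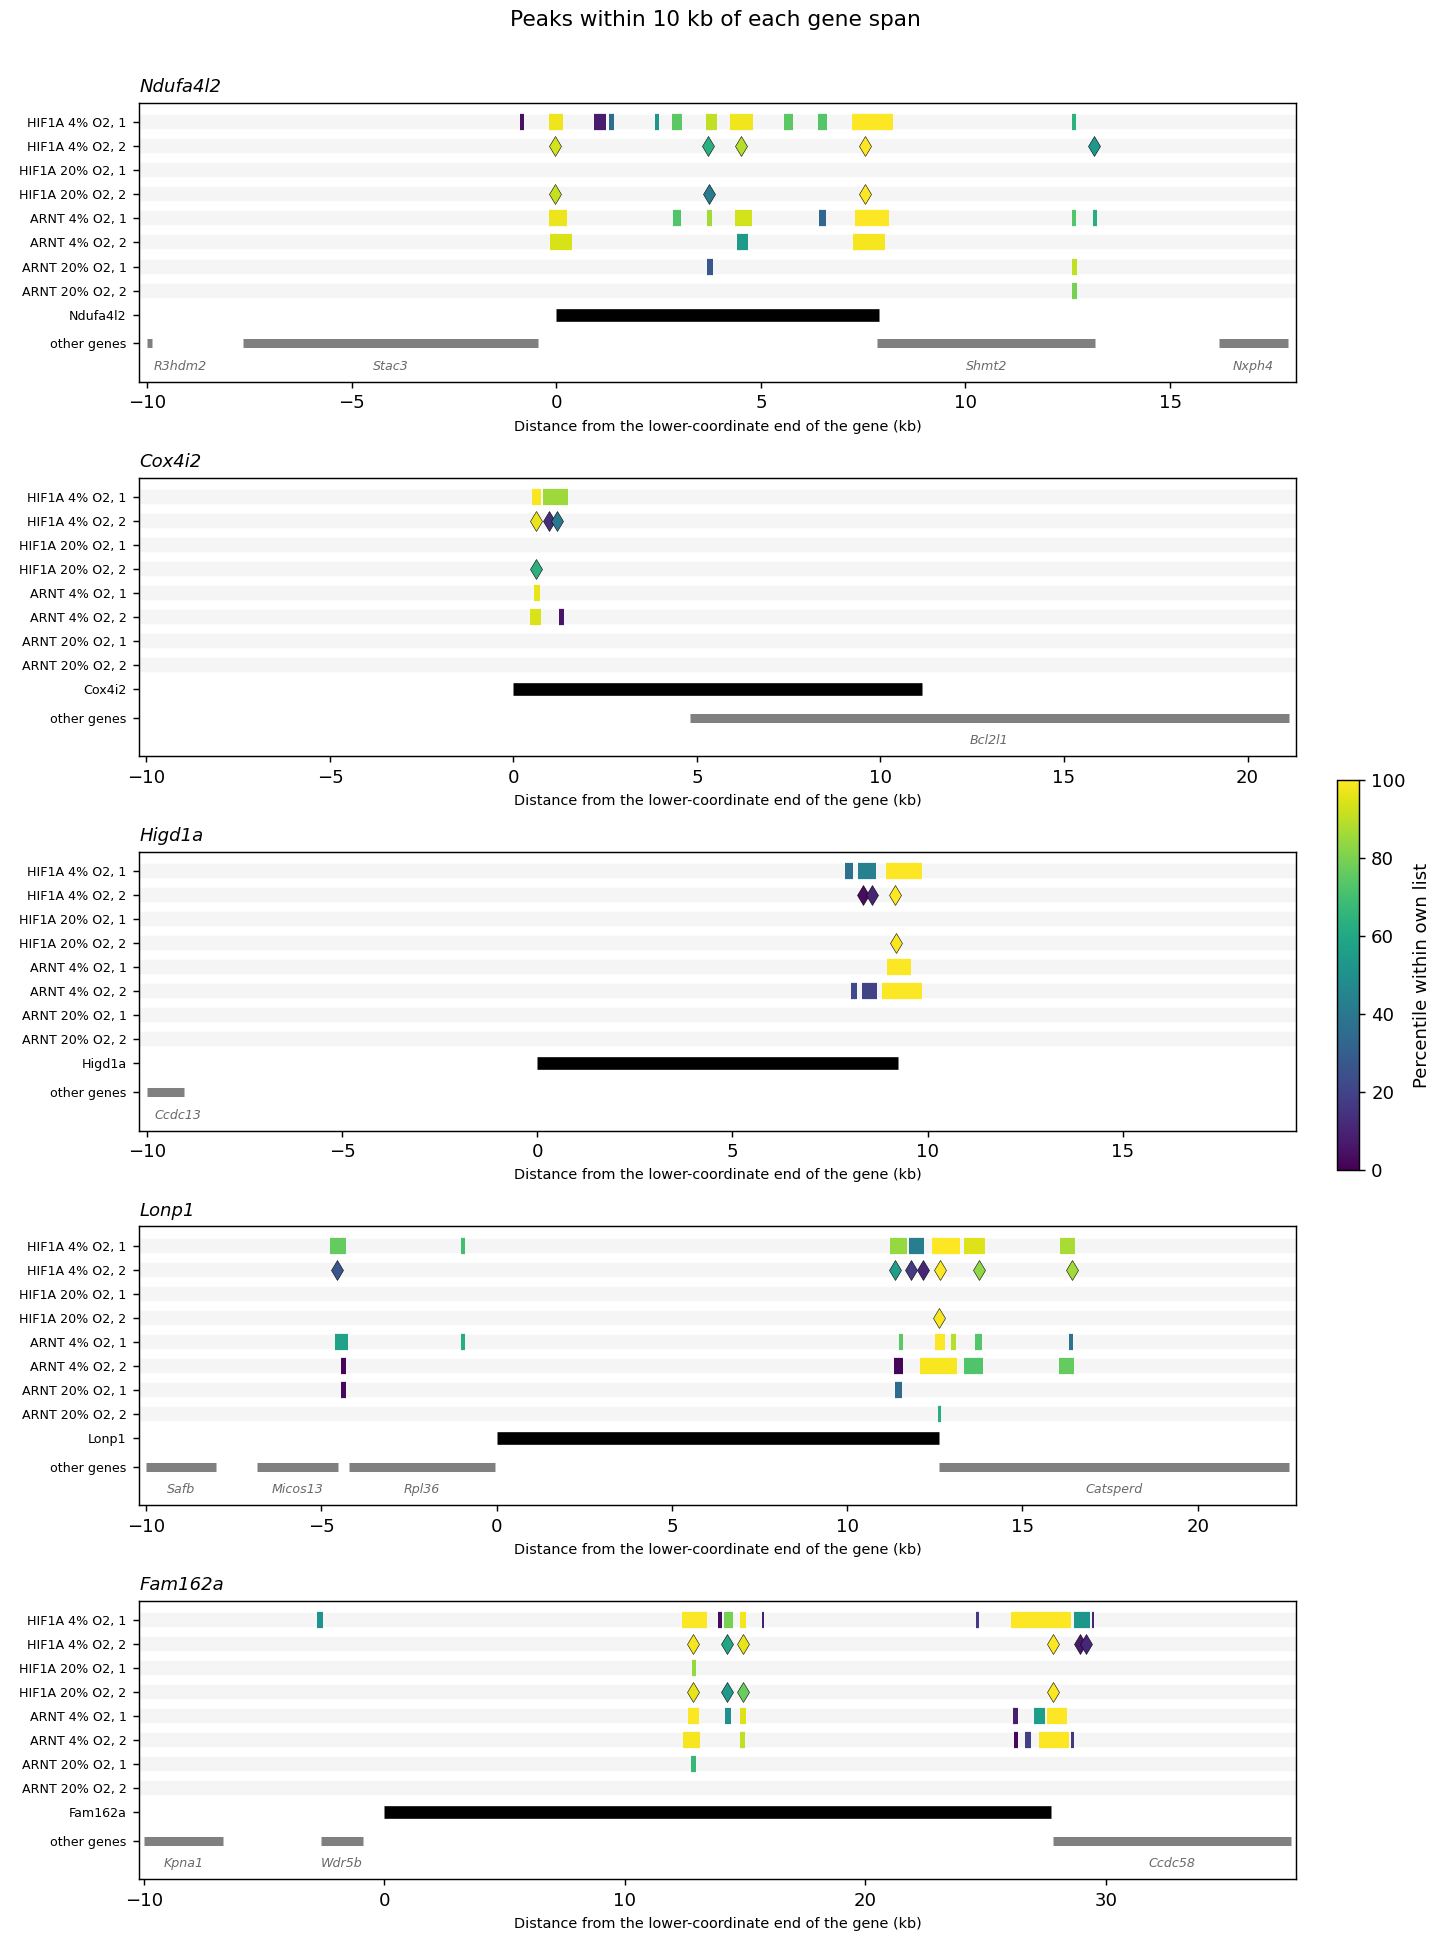
Peaks within 10 kb of each gene (x axis, kb from the lower-coordinate end of the gene) in the 8 lists, with intervals as bars and 1 bp entries as diamonds, coloured by percentile within their own list; black and grey bars are the spans of the gene and of other protein-coding genes. The strongest site of each gene, chosen by its percentiles at 4% O2, is in all 4 lists at 4% O2. At 20% O2 HIF1A replicate 2 has the strongest site of every gene while HIF1A replicate 1 has none of these 5 sites.

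The 250 bases before the start are shown for the 3 genes for which the RefSeq promoter table of GRCm38.p6 (the same assembly as mm10) had an entry, since the strongest site of each lay over the start. They run 5′ to 3′ on the minus strand, and capitals mark ACGTG or GCGTG on either strand (CACGT or CACGC where the core is on the opposite one).
Higd1a, chr9:121857797-121858046: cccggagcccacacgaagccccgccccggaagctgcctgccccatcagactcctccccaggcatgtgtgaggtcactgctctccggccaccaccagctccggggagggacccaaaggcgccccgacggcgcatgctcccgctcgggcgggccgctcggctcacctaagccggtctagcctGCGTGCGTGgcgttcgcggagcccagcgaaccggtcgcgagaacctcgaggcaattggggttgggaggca
Lonp1, chr17:56626904-56627153: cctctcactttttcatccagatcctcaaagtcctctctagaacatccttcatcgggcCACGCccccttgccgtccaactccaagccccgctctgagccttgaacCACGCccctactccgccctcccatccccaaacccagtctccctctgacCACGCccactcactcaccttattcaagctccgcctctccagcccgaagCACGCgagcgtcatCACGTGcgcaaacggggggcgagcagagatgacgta
Fam162a, chr16:36071562-36071811: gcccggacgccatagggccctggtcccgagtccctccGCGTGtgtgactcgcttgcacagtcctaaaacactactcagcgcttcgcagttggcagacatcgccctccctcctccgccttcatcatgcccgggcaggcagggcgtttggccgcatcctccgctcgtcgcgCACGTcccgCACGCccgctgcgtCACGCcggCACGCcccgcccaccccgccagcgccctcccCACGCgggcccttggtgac

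In the Fam162a window, the ACGTG core on the opposite strand was centred 79 bases before the start, 1 bp from the HIF1A summit of 4% O2 replicate 2. GCGTG on the opposite strand followed at 8, 22 and 30 bp from that summit. In the Lonp1 window, GCGTG on the opposite strand was centred 4 bp from the summit, and the palindrome CACGTG, which counts as ACGTG on both strands, lay 10 and 11 bp from it by the centres of its 2 cores. The Higd1a window held no ACGTG and 2 overlapping GCGTG, 142 and 146 bp from the summit, which itself lay outside the window. ACGTG was in 16.6% of the 32851 promoter windows of that length in the table, GCGTG in 28.2% and CACGTG in 6.02%. Lonp1 and Fam162a had 6 matches each, a number reached by 0.417% of the windows, and Higd1a had 2, reached by 16.7%. A match describes the letters in the window and does not show which bases were bound.

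In HIF1A replicate 2, the peaks found at 20% O2 lay at positions that were also called at 4% O2. HIF1A at 4% O2 replicate 2 had 24 entries at the 5 genes, and HIF1A at 20% O2 replicate 2 had 10. Each of the 10 had an entry of 4% O2 replicate 2 within 100 bp, at 0 to 23 bp (median 9.5). Over the whole list, 45.5% of the 13386 entries at 20% O2 had such a partner, at a median distance of 18 bp. Of the 10 positions at 4% O2, 8 lay inside an interval of HIF1A replicate 1 and of both ARNT lists at 4% O2. All 10 had a higher percentile at 4% than at 20% O2, against 51.2% of all 6093 partnered entries. The gap was wide at Cox4i2 (96.7 at 4% O2, 63.9 at 20% O2) and narrow at the start of Fam162a (99.69 and 99.57). Another Fam162a position, at chr16:36058655-36058872, had 96.3 and 77.2. Percentiles near the top of a list leave little room for a gap. The 2 lists of HIF1A replicate 2 are close in length, and each is a single sample, so the percentiles describe 2 samples and carry no test.

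Every list at 4% O2 had more peaks at each of the 5 genes than either list of the same antibody at 20% O2, a pattern found at 10.3% of protein-coding genes. Ndufa4l2 had 12 and 5 HIF1A peaks and 8 and 3 ARNT peaks at 4% O2, against 0 and 3 HIF1A peaks and 2 and 1 ARNT peaks at 20% O2. Cox4i2 had 2 and 3 HIF1A peaks and 1 and 2 ARNT peaks at 4% O2, against 0 and 1 HIF1A peaks and no ARNT peak at 20% O2. Higd1a had 3 and 3 HIF1A peaks and 1 and 3 ARNT peaks at 4% O2, with the same counts as Cox4i2 at 20% O2. The groups of 1 antibody did not overlap at any of these 3 genes.

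Lonp1 had 7 and 7 HIF1A peaks and 7 and 5 ARNT peaks at 4% O2, against 0 and 1 HIF1A peaks and 2 and 1 ARNT peaks at 20% O2. Fam162a had 10 and 6 HIF1A peaks and 6 and 6 ARNT peaks at 4% O2, against 1 and 4 HIF1A peaks and 1 and 0 ARNT peaks at 20% O2. At these 2 genes the groups did not overlap even with both antibodies pooled, as at 8.04% of protein-coding genes.

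The mean number of peaks per list was 7 ± 3.92 at 4% O2 and 1.5 ± 1.29 at 20% O2 for Ndufa4l2, 2 ± 0.816 and 0.25 ± 0.5 for Cox4i2, and 2.5 ± 1 and 0.25 ± 0.5 for Higd1a (SD, n = 4 lists at each level). It was 6.5 ± 1 at 4% O2 and 1 ± 0.816 at 20% O2 for Lonp1, and 7 ± 2 and 1.5 ± 1.73 for Fam162a. The 4 lists at each level are 2 of HIF1A and 2 of ARNT. Counts of HIF1A replicate 2 are of 1 bp entries and the others of intervals. A single interval can span more than 1 such entry, as at Cox4i2 and Higd1a. Each SD therefore also holds differences between antibodies, list lengths and kinds of entry, and is not a spread of replicates alone. The difference in means, 4% minus 20% O2, was 5.5 peaks for Ndufa4l2, Lonp1 and Fam162a, 2.25 for Higd1a and 1.75 for Cox4i2. Counted over the gene span alone, without the flanks that hold neighbouring genes, the difference for Lonp1 was 2. For each gene the two-sided exact permutation test, which exchanged oxygen labels within each antibody, gave p = 0.0556, the smallest that 36 arrangements allow, so no gene could pass 0.05. Per the file headers all replicate 1 lists came from 1 sequencing lane, and within them the difference was 9 for Ndufa4l2, 7 for Fam162a, 6 for Lonp1, 2 for Higd1a and 1.5 for Cox4i2. In the same order the replicate 2 differences were 2, 4, 5, 2.5 and 2. The ARNT replicate 2 lists of 4% and 20% O2 carry different flow cell names, so in that pair the sequencing run and oxygen cannot be told apart.

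**Figure D3:**
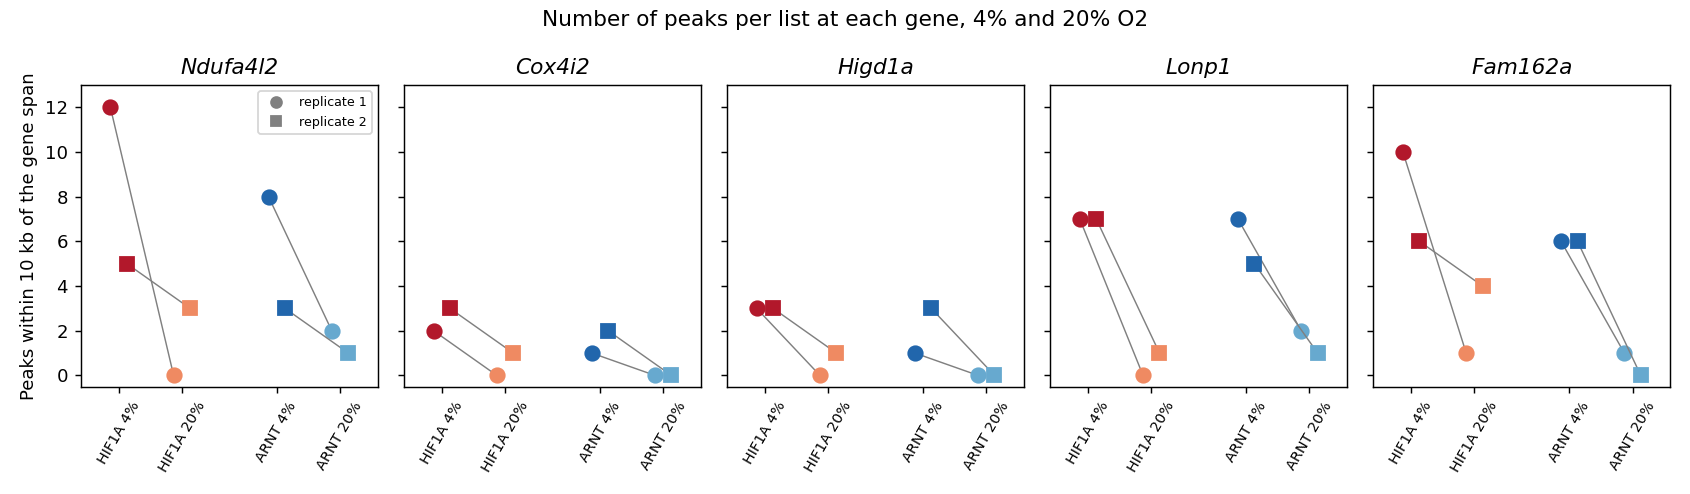
Number of peaks per list within 10 kb of each gene (y axis) for HIF1A and ARNT at 4% and 20% O2 (x axis), with circles for replicate 1 and squares for replicate 2; lines join lists of the same replicate number. All lines slope down from 4% to 20% O2, most steeply at Ndufa4l2 in HIF1A replicate 1 (12 peaks at 4% O2 and 0 at 20% O2).

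The length of the lists moves these counts, so the genes were also read against list length. With HIF1A replicate 2, whose lists are nearly equal in length, all 5 genes had more entries at 4% than at 20% O2, as did 17.8% of protein-coding genes. For the other pairs this held for 55.5% of protein-coding genes in HIF1A replicate 1, 41.2% in ARNT replicate 1 and 32.3% in ARNT replicate 2. When the 1808 highest peaks of every list were compared, the strongest sites of all 5 genes were among them in all 4 lists at 4% O2. Their ranks there ran from 19 to 922. That was partly set in advance, since these sites were chosen by their percentiles at 4% O2. At 20% O2 the strongest sites were among the 1808 highest peaks for 4 genes in HIF1A replicate 2 and for Lonp1 in ARNT replicate 2. ARNT replicate 2 at 20% O2 has 1808 peaks in all, so every peak in that list counted. In the replicate 1 lists at 20% O2 the strongest sites were among the highest for none. With any peak of a gene counted, all 5 genes had one among the highest in each list at 4% O2. At 20% O2 this held for 4 genes in HIF1A replicate 2 and 2 in ARNT replicate 2. In replicate 1 it held for 1 gene in HIF1A (Fam162a) and 1 in ARNT (Ndufa4l2, at the peak inside Shmt2). These counts were not set against all protein-coding genes. Counted among these highest peaks alone, the difference in mean peaks per list, 4% minus 20% O2, was 2.25 for Fam162a, 1.75 for Ndufa4l2, 1 for Cox4i2, 0.75 for Higd1a and 0.5 for Lonp1. How far list length or depth sets the difference between oxygen levels was not tested.

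Merging overlapping peaks gave 33 sites at the 5 genes, 13 at Ndufa4l2, 10 at Fam162a, 5 at Lonp1, 3 at Higd1a and 2 at Cox4i2. No site was found at 20% O2 only. Of the 33, 12 had a peak in all 4 lists at 4% O2, 12 had a peak in any list at 20% O2, and 10 were in 1 list only. Every list at 20% O2 was shorter than the list of the same antibody and replicate number at 4% O2. These site counts were not set against other genes, so they are not shown to be particular to the 5. Of the 12 in all 4 lists at 4% O2, 3 had no peak at 20% O2, namely 1 inside Ndufa4l2 and 2 upstream of Lonp1. Several sites belong by position to neighbours. The site at the start of Micos13, which encodes a subunit of the MICOS complex of the inner membrane, reached from that gene into the gap before Rpl36. At 4% O2 it had percentiles of 76.1 and 26.0 in the HIF1A lists and of 57.4 and 1.46 in the ARNT lists. At 20% O2 it was in ARNT replicate 1 only, at 2.32. The site over the ribosomal protein gene Rpl36 was in both replicate 1 lists at 4% O2.

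Of 7 listed paralogs and partners of the 5 genes, 6 were found in the annotation. At 4% O2, 1 had a peak in both HIF1A lists and 1 in both ARNT lists (16.7% each, against 34.5% and 31.6% of protein-coding genes). At 20% O2 none had either, against 10.7% and 7.25%. These counts rest on 6 genes and were not tested. None of the 6 had a peak in all 4 lists at 4% O2, as 26.4% of protein-coding genes did, so all 6 are given. Ndufa4, the subunit that NDUFA4L2 resembles, had none in all 8 lists, and neither had Higd1b or Higd1c. Cox4i1, the standard isoform of the subunit that COX4I2 replaces, had 1 peak in each replicate 1 list at 4% O2, at percentiles of 27.5 for HIF1A and 6.82 for ARNT, and none at 20% O2. Higd2a had peaks in both HIF1A lists at 4% O2, at 64.2 and 35.5, and in ARNT replicate 1 at 55.5. At 20% O2 it had peaks in HIF1A replicate 2 at 47.3 and in ARNT replicate 1 at 51.2. Lonp2, a peroxisomal protease, had peaks in both ARNT lists at 4% O2, at 3.06 and 17.6, and in no other list.

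Cytochrome c oxidase is built from further subunits by a set of assembly factors. Of 15 other subunit genes, 6 had a peak in both HIF1A lists and 5 in both ARNT lists at 4% O2 (40% and 33.3%, against 34.5% and 31.6% of protein-coding genes). At 20% O2 the numbers were 0 and 1 (0% and 6.67%, against 10.7% and 7.25%). Cox7a1, a muscle-type isoform, had best percentiles from 93.4 to 97.8 at 4% O2, Cox7b from 79.3 to 96.1 and Cox8a from 6.93 to 90.4. At 20% O2 each had a peak in HIF1A replicate 2, at 84.0, 89.5 and 59.1 for Cox7a1, Cox7b and Cox8a, and Cox7b also in ARNT replicate 1 at 56.6. Of 16 assembly genes, 4 had a peak in both lists of each antibody at 4% O2 (25%, against 34.5% and 31.6% of protein-coding genes). At 20% O2 it was 1 for HIF1A and 0 for ARNT (6.25% and 0%, against 10.7% and 7.25%). The 4 genes at 4% O2 were Cox20, Coa7, Sco2, which delivers copper to the enzyme, and Coa5. Their lowest percentiles at 4% O2 were 88.6, 85.6, 31.3 and 17.8.

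Of 14 protease genes, 6 for HIF1A and 8 for ARNT had a peak in both lists at 4% O2 (42.9% and 57.1%, against 34.5% and 31.6% of protein-coding genes), and 2 for each antibody at 20% O2 (14.3%, against 10.7% and 7.25%). Clpx, the unfoldase of the matrix protease ClpXP, had best percentiles from 72.3 to 95.3 at 4% O2 and no peak at 20% O2. Immp2l and Htra2 had peaks in all 8 lists, with gene spans of 931528 and 3306 bp. Gene counts were not adjusted for window length, and a long window can hold more peaks. The lowest percentiles of Immp2l, Htra2 and Lactb at 4% O2 were 48.5, 26.3 and 1.73. The median of the lowest percentile at 4% O2 was 0 in each of these 4 lists, as over all genes.

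**Figure D4:**
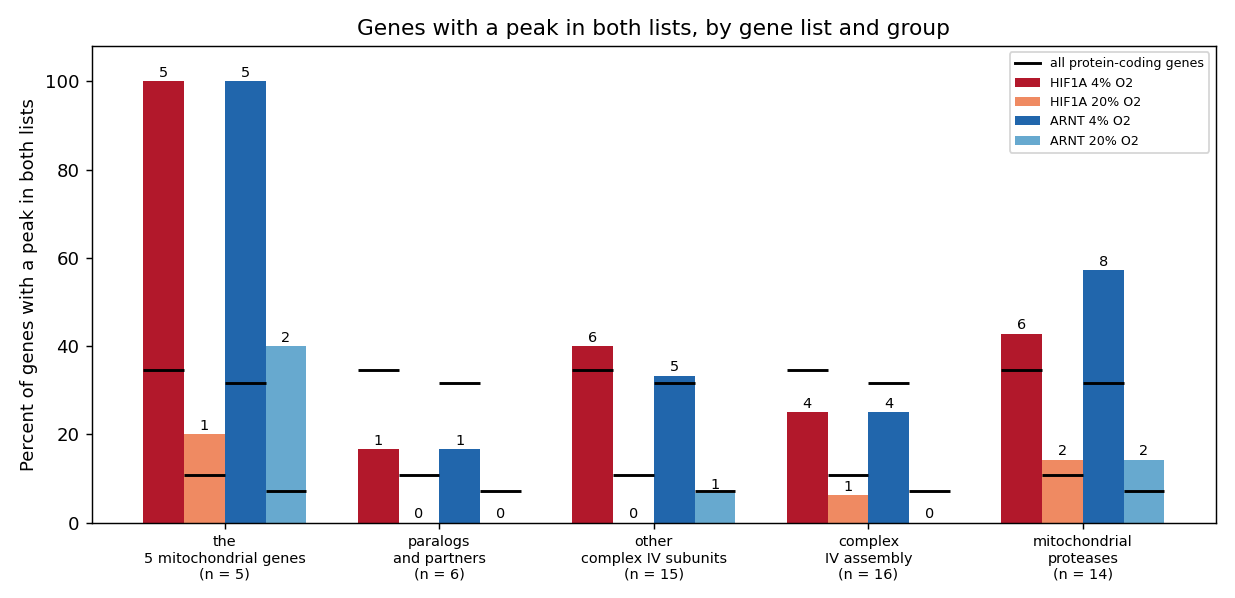
Percent of genes with peaks in both replicates of a group (y axis) for the 5 genes and 4 related gene lists (x axis), with the number of genes above each bar and a black line for all protein-coding genes. The 5 genes reach 100% for both antibodies at 4% O2, while the related lists lie between 16.7% and 57.1% there.

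Genes with the most similar profiles were sought over all protein-coding genes. Likeness was the mean absolute difference of best percentile over the 8 lists, with 0 for a list without a peak. Genes that share a peak with the gene in question were left out. Those that share peaks with one another were kept, so genes with identical values may owe them to the same peaks. Closest to Higd1a were Cyb561d1, Atxn7l2 and Sypl2, with a difference of 0.0804 and identical values among themselves. Closest to Cox4i2 were Ndrg2, Tppp2 and Rnase13, also with identical values among themselves and a difference of 0.444. The ARNT values of Ndufa4l2 at 20% O2 used for this, 90.9 and 79.1, came from the peaks inside Shmt2. P4ha1, a collagen prolyl hydroxylase subunit, was closest to Ndufa4l2 (2.02), followed by Uhrf1 (2.38) and Zan (2.56). Epo had the same values as Zan in all 8 lists and so ties with it here. Rab7 (2.85), Fcho2 (2.85) and Pnrc1 (3.34) were closest to Fam162a. No gene came within 7 points of Lonp1, where Trim71 (7.13), Zan and Epo (7.18 each) were closest.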

How the data were processed

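The submitters' processing notes name MACS2, BWA and Picard, and mm10 as the genome build. No version or setting is given in the sources used here. Of the 12 samples, 8 are ChIP and 4 input. The authors called peaks for each of the 8 ChIP samples against an input, and the deposited lists give a position and a score per peak; no header names the scale of the score, so it was used only to rank peaks within a list. Both HIF1A replicate 2 lists hold 1 bp entries from 2 combined sequencing runs, per the labels' design text, and were called against other inputs than the rest, per the file names. The 4 inputs themselves were not analysed here.

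Groups came from the sample titles. Genes came from RefSeq GRCm38.p6 (21631 protein-coding genes on chromosomes with peaks). A peak was counted where it overlapped the gene span with 10 kb either side by 1 bp. For sites, 1 bp entries were widened by 100 bp either side and overlapping peaks merged. Exon and intron positions were not used. Oxygen levels were compared by exact permutation within antibody, and functions were tested on simulated data (Python 3.11.15, pandas 2.3.3). The genes, lists and tests were chosen with earlier results of these data known. Named were the 5 genes, neighbours in their windows, up to 4 genes of each related list by the lowest of 4 best percentiles at 4% O2, and the 3 genes of closest profile. Alternatives were windows of 5 kb and of the gene span alone, the 1808 highest peaks or the upper 50% of each list, other ways of merging, each replicate left out, and a block on the replicate number.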

Additional observations from a re-analysis of the deposited data

How the results depend on the processing

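The 5 of 5 genes with a peak in both lists at 4% O2 held for both antibodies in all alternatives run. With 1 replicate left out this was fixed in advance, since only 1 list then had to hold a peak. Counts under the alternatives are not set here against all protein-coding genes. The 20% O2 counts did not hold in all alternatives. For ARNT the count was 1 gene in place of 2 with the gene span alone, with the 1808 highest peaks, with the upper 50% of each list, and when peaks of both lists had to overlap (chosen after seeing the data). HIF1A at 20% O2 had 1 to 5 genes with 1 replicate left out, 5 coming from replicate 2 alone. With the 1808 highest peaks, 10 sites were left of 33, and 7 of 12 with a peak at 20% O2. With 1 replicate left out, sites with a peak at 20% O2 numbered 5 to 11, the 5 without replicate 2, and sites in every list at 4% O2 numbered 14 to 19, where fewer lists have to share a site. The difference in peaks per list stayed above 0 in all 40 alternatives for the 5 genes, from 0.5 (Lonp1, 1808 highest peaks) to 9 (Ndufa4l2 without replicate 2), with exact p from 0.0556 to 0.5.

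Replicate numbers are shared between oxygen levels, and the labels give them no further meaning. Deviations of replicate 1 from 2 over genes correlated at -0.279 for HIF1A and 0.366 for ARNT between oxygen levels. With the replicate number as a block, the differences were the same, 5.5 for Ndufa4l2, and exact p was 0.125 for each gene, the smallest that 16 arrangements allow. Crossing the HIF1A numbers, chosen after seeing the data, left the differences and the exact p of 0.125 unchanged. With 16 arrangements no gene could pass 0.05 in either pairing, so the block cannot decide for or against a difference. Depth is unknown, so the absence of a peak means that none was called.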
